A study of Homo sapiens with 27 samples.

Results

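The 35 genes described here encode the transporters and enzymes of glycolysis, together with proteins that cells make in larger amounts when oxygen is short. They were chosen by name from the array's annotation, and each is represented by the probe with the highest mean in the deposited normalised matrix. They are 35 of the 20035 genes with a probe. Of them, 34 passed the detection filter (a detection p under 0.01 on at least 2 of the 27 arrays), which left 13471 genes in all. The exception is PDK1, which encodes a kinase that inhibits pyruvate dehydrogenase and so holds back the entry of pyruvate into the citrate cycle. Its probe was detected on 0 of 27 arrays.

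RNA came from LS174T, a human colorectal carcinoma cell line, and was hybridised to Illumina bead arrays. The SNAI1 line (11 arrays) carried an inducible mSnail1-HA transgene, the LEF1 line (7 arrays) an inducible mLef1-HA transgene, and the control line (9 arrays) is labelled as overexpressing nothing. The descriptions of the control arrays begin with Luc, and what that stands for is not given there. All lines were pN1-LS174T cells, and times are hours of induction with 0.1 µg/ml doxycycline (Dox), renewed after 48 h in the long treatments. The SNAI1 line had 2 arrays at 0, 6, 48 and 96 h and 1 at 3, 24 and 72 h, the LEF1 line 2 at 0, 6 and 72 h and 1 at 24 h, and the control line 2 at 0 and 6 h and 1 at each of the other 5 times. SNAIL1 is a transcriptional repressor of epithelial genes, and LEF1 binds DNA together with beta-catenin in Wnt signalling. The labels do not say whether a line is 1 clone or whether replicates were separate cultures, so p-values measure only the spread between these arrays, which may be technical.

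Glycolysis splits glucose into pyruvate, and lactate dehydrogenase turns pyruvate into lactate, so that the pathway can run without oxygen. Hypoxia-inducible factors (HIF) switch on many of these genes. While oxygen is present, prolyl hydroxylases such as the EGLN1 and EGLN3 proteins mark the HIF alpha subunit for destruction. When it runs short, HIF is stable and raises glucose transporters, glycolytic enzymes, the blood vessel growth factor VEGFA, mitophagy proteins and collagen hydroxylases. Many colorectal carcinoma cells run glycolysis at a high rate even where oxygen is plentiful.

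HIF binds a short core motif in DNA, which was looked for in RefSeq promoter windows (build GRCh38.p14) of 250 bases before an annotated start. Not every start of a gene has a window, and some windows lie inside the gene's locus. Windows were at hand for 30 of the 35 genes. The motif was written as ACGTG or GCGTG and searched on both strands, so that a match on the other strand shows as the reverse complement of these letters. The palindrome CACGTG counts once on each strand, as 2 overlapping matches. At least 1 match lay in 68.1% of the 47 windows of the 30 genes and in 43.2% of the 35116 windows of all genes. For ACGTG alone these shares were 46.8% and 18.5%. The windows of the 30 genes were also richer in G and C (a median of 68.8% against 58.0% in all windows), and the part of base composition in these shares was not tested. The windows below belong to 5 genes with large changes or differences in at least 1 of the comparisons that follow. Their positions are chr4:185396591-185396840 on the plus strand for ANKRD37, chr10:131981924-131982173 on the minus strand for BNIP3, chr10:72273674-72273923 on the plus strand for DDIT4, chr12:6914330-6914579 on the plus strand for ENO2 and chr5:132227092-132227341 on the minus strand for P4HA2. Each is printed 5′ to 3′ on the gene's own strand and ends at the base before the start, with matches in capitals.
ANKRD37: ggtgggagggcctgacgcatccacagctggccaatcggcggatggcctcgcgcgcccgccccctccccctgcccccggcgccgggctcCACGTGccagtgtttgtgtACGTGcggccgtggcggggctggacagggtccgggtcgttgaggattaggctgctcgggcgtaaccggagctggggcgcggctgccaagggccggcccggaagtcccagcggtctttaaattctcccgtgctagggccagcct
BNIP3: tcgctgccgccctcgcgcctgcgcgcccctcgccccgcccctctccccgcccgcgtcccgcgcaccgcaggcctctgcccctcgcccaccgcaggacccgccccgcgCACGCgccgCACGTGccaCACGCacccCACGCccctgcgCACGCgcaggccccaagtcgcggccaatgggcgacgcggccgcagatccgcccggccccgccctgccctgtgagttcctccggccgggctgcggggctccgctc
DDIT4: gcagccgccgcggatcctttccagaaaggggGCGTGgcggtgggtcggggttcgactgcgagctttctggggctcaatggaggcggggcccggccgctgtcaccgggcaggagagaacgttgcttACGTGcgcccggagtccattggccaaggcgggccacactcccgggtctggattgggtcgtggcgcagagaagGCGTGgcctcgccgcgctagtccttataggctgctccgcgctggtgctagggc
ENO2: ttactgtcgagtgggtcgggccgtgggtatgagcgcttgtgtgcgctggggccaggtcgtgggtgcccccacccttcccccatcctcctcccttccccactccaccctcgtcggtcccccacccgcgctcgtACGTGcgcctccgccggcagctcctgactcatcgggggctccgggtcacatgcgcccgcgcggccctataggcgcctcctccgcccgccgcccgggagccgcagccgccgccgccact
P4HA2: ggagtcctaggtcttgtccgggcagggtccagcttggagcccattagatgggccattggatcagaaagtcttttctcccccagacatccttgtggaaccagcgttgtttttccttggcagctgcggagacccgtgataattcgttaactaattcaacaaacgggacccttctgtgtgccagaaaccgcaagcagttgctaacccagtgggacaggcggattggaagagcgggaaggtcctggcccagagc
BNIP3 held 6 matches, ANKRD37 and DDIT4 3 each, and ENO2 1, which begins 118 bases before the start. The P4HA2 window held 0 matches, which says only that these letters are not in it. It lies inside the P4HA2 locus, whose 5′ end is at 132227853, so the bases before that end were not searched.

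The arrays fall into 2 sets by the form of their detection p. Set 1 (continuous p) holds the 11 SNAI1 arrays and 7 control arrays, with 18241 to 19683 detected probes. Set 2 (stepped p) holds the 7 LEF1 arrays, control 0 h replicate 2 and control 6 h replicate 1, with 14766 to 15918. Each change below was therefore taken within a set. Of 11 markers of colorectal epithelium, 7 were detected on all 27 arrays, EPCAM among them (10.82 to 13.92 on the log2 scale). The others were KRT20, detected on 7 arrays, VIL1 and CEACAM5 on 24 each and MUC2 on 26. Of the endothelial markers, PECAM1 and CDH5 were detected on 0 arrays and VWF on 2. Of the fibroblast markers, PDGFRB was detected on 0 arrays, COL1A1 on 1, COL1A2 on 2, DCN on 5 and FAP on 23. Of the blood cell markers, PTPRC and CD3E were detected on 1 array each, HBB on 9, CD14 on 10 and LYZ on 15. The part of such cells in the results was not tested. In such bulk RNA, fewer cells of a kind and less RNA per cell cannot be told apart. The transgenes are of mouse sequence and were not analysed here.

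The 2 control arrays at 0 h, one in each set, lie far apart in these genes. ANKRD37 read 7.59 on the set 1 array and 11.45 on the set 2 array, NDRG1 8.19 and 11.56, and BNIP3 10.40 and 12.53. In set 1 the control line was higher at 6 h than at 0 h in 33 of 34 genes (median difference 0.75), and in set 2 it was lower at 6 h in 27 of 34 (median -0.32). The set 1 array at 0 h stood close to both SNAI1 arrays at 0 h (median SNAI1 minus control difference 0.09 and 0.02). Each change of the control line within set 1, and each comparison with it, rests on that 1 array, so values without it are given too.

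**Figure D1:**
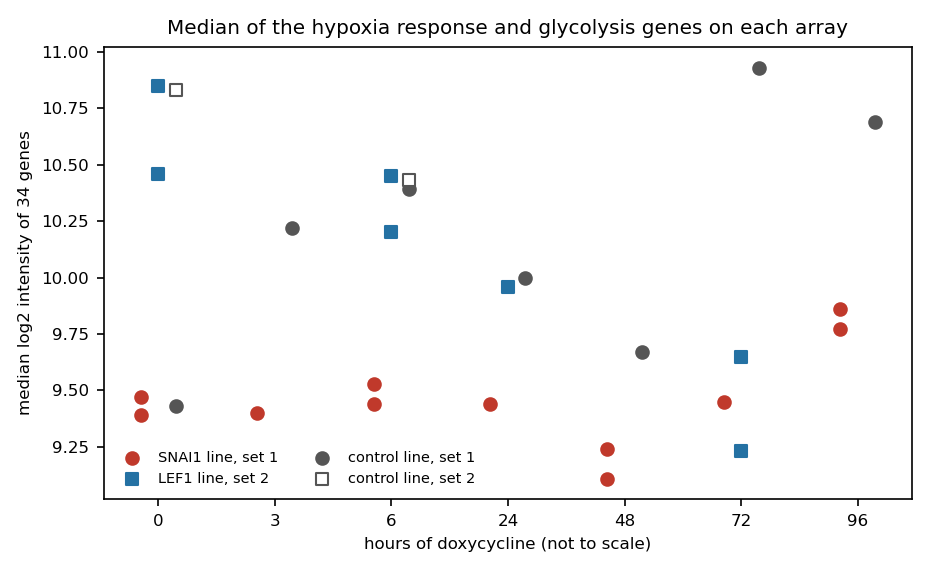
Median log2 intensity of the 34 tested genes on each array (vertical axis) by hours of doxycycline (horizontal axis, not to scale); circles are set 1, squares are set 2, and open squares are the control line in set 2. The 11 SNAI1 arrays lie between 9.11 and 9.86, the LEF1 arrays go down to 9.23 and 9.65 at 72 h, and the control array at 0 h in set 1 (9.43) lies below the other 8 control arrays.

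The median of the 34 genes per array gives the outline. In the SNAI1 line it was 9.39 and 9.47 at 0 h, 9.40 at 3 h, 9.53 and 9.44 at 6 h, 9.44 at 24 h, 9.24 and 9.11 at 48 h, 9.45 at 72 h, and 9.77 and 9.86 at 96 h. In the LEF1 line it was 10.46 and 10.85 at 0 h, 10.20 and 10.45 at 6 h, 9.96 at 24 h, and 9.23 and 9.65 at 72 h. In the control line of set 1 it was 9.43 at 0 h, 10.22 at 3 h, 10.39 at 6 h, 10.00 at 24 h, 9.67 at 48 h, 10.93 at 72 h and 10.69 at 96 h. Thus the SNAI1 arrays lay between 9.11 and 9.86, the LEF1 line was lowest at 72 h, and the control line dipped at 48 h between higher values. A median of levels is not the median of the genes' changes from 0 h. In the SNAI1 line at 96 h the median change was -0.11, with 21 of 34 genes negative. In the LEF1 line at 72 h it was -0.65, with 31 negative. The 2 control arrays of set 2 had 10.83 at 0 h and 10.43 at 6 h.

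**Figure D2:**
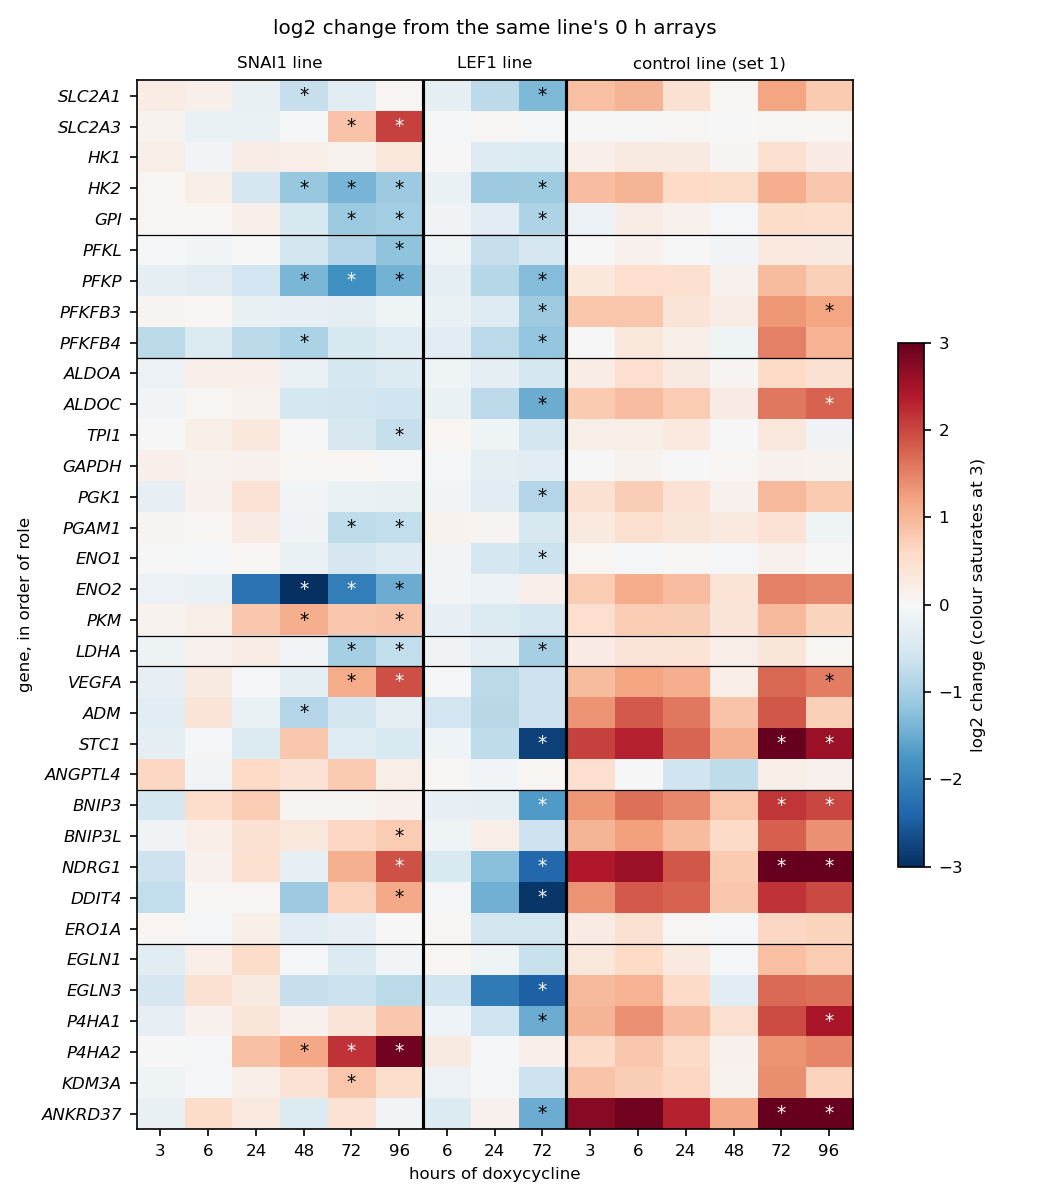
Log2 change of each tested gene from the same line's 0 h arrays (colour, red higher and blue lower) by hours of doxycycline (columns), with genes in rows by role and the cell lines parted by thick rules; an asterisk marks an adjusted p under 5% in limma over 13471 genes. ENO2, PFKP and HK2 are lower and P4HA2 higher late in the SNAI1 line, 31 of 34 genes are below 0 at 72 h in the LEF1 line, and 34 of 34 above 0 at 72 h in the control line.

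Values are log2 intensities after background correction and quantile normalisation, comparable between arrays for one probe but not between probes. A gene is said to have risen, fallen or been called where its Benjamini-Hochberg adjusted p over all 13471 genes in limma was under 5%.

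In the SNAI1 line the late change is the mean of 24, 48, 72 and 96 h against the line's own 0 h. Among the glycolytic genes ENO2, PFKP, HK2, PFKFB4 and GPI fell, while PKM rose. Outside glycolysis VEGFA, NDRG1 and P4HA2 rose. With SLC2A3, which passed the detection filter only through late SNAI1 arrays, these are 5 genes higher and 5 lower of 34, where 13% of all 13471 genes were called higher and 12.3% lower (25.3% in all). The median of the 34 genes was -0.10 on the log2 scale, that of all genes 0.03. The share of these genes called was thus near the background, and the genes at issue are the single ones named.

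ENO2, the neuron-type enolase of lower glycolysis, had the largest fall of the 34. In the SNAI1 line it read 8.14 and 8.17 at 0 h, 7.97 at 3 h, 7.40 and 8.50 at 6 h, 5.94 at 24 h, 5.13 and 5.23 at 48 h, 6.08 at 72 h, and 6.54 and 6.76 at 96 h. It was thus low on every array from 24 h on, below both 0 h arrays, with its lowest values at 48 h. Its late mean was 4.57-fold lower (log2 change -2.19, SE 0.349, adjusted p = 0.000943). The other enolase gene, ENO1, differed by -0.26 and was not called (adjusted p = 0.172).

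PFKP encodes the platelet-type subunit of phosphofructokinase, the committed step of the pathway. Its SNAI1 line values were 9.76 and 9.88 at 0 h, 9.56 at 3 h, 9.60 and 9.38 at 6 h, 9.26 at 24 h, 8.39 and 8.53 at 48 h, 7.98 at 72 h, and 8.41 and 8.40 at 96 h. Every later array was below the 0 h arrays, and late and 0 h groups did not overlap (log2 change -1.30, SE 0.185, adjusted p = 0.000451). PFKFB4, which encodes an enzyme that sets the level of the activator fructose-2,6-bisphosphate, read 9.55 and 9.43 at 0 h, 8.67 at 3 h, 8.89 and 9.22 at 6 h, 8.67 at 24 h, 8.57 and 8.51 at 48 h, 9.01 at 72 h, and 9.09 and 9.15 at 96 h. It was already low at 3 h, and its late change passed against 0 h (-0.65, SE 0.184, adjusted p = 0.0237) but was -0.03 against 3 and 6 h (adjusted p = 0.923). PFKL (the liver-type subunit) and PFKFB3 (another enzyme of that kind) differed by -0.66 and -0.22 over the late times and were not called, but PFKL fell at 96 h (-1.21, SE 0.295, adjusted p = 0.00811).

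Hexokinase 2 traps glucose in the cell by phosphorylating it. HK2 read 9.25 and 9.39 at 0 h, 9.39 at 3 h, 9.66 and 9.32 at 6 h, 8.82 at 24 h, 8.06 and 8.33 at 48 h, 7.93 at 72 h, and 8.29 and 8.20 at 96 h in the SNAI1 line. Values were below 0 h from 24 h on, and lowest at 72 h. The log2 change of HK2 over all late times was -1.02, SE 0.206, adjusted p = 0.00405. GPI, the isomerase of the next step, read 11.38 and 11.26 at 0 h, 11.39 at 3 h, 11.27 and 11.48 at 6 h, 11.47 at 24 h, 10.90 and 10.78 at 48 h, 10.20 at 72 h, and 10.26 and 10.31 at 96 h. It fell at 72 and 96 h only in the tests by time, and over all late times by a smaller amount (-0.62, SE 0.202, adjusted p = 0.0431). HK1, the housekeeping hexokinase, differed by 0.21 (adjusted p = 0.453) and SLC2A1, the basal glucose transporter GLUT1, by -0.30 (adjusted p = 0.114). In the tests by time SLC2A1 fell at 48 h.

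SLC2A3 encodes GLUT3, a glucose transporter with high affinity. Its probe was detected on 3 of 27 arrays, all of them late SNAI1 arrays. It entered the tests only through them and so had to differ, and it is given here as a description, although the counts of genes called higher in the SNAI1 line include it. It read 4.50 and 4.41 at 0 h, 4.55 at 3 h, 4.29 and 4.22 at 6 h, 4.26 at 24 h, 4.44 and 4.38 at 48 h, 5.31 at 72 h, and 6.36 and 6.67 at 96 h, and 4.22 to 4.38 in the LEF1 and control lines. The gene was at least 1.47-fold higher over the late times, and at 96 h at least 3.85-fold higher than at 0 h, since no 0 h array detected it. With no background correction, or with the deposited matrix, the late difference was 0.23.

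PKM, the pyruvate kinase gene of the last step, was the enzyme gene that rose. Its values were 10.65 and 10.58 at 0 h, 10.72 at 3 h, 10.83 and 10.77 at 6 h, 11.44 at 24 h, 11.87 and 11.52 at 48 h, 11.44 at 72 h, and 11.48 and 11.49 at 96 h. All late arrays lay above all arrays at 0, 3 and 6 h (log2 change 0.90, SE 0.22, adjusted p = 0.0119). Its isoforms were not analysed here. Between these steps, ALDOA, ALDOC, TPI1, GAPDH, PGK1 and PGAM1 (aldolases to phosphoglycerate mutase) had late changes of -0.39 to 0.05, with none called over all late times. By time, PGAM1 fell at 72 h (-0.76, SE 0.245, adjusted p = 0.0471) and 96 h (-0.74, SE 0.2, adjusted p = 0.0141), and TPI1 at 96 h (-0.70, SE 0.175, adjusted p = 0.00974). LDHA, which makes lactate from pyruvate, differed by -0.40 over the late times (adjusted p = 0.0646), but fell at 72 h (-0.99, SE 0.209, adjusted p = 0.00605) and at 96 h (-0.73, SE 0.171, adjusted p = 0.00635).

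Among the hypoxia genes outside glycolysis, P4HA2 rose the most in the SNAI1 line. It encodes an alpha subunit of the prolyl hydroxylase that collagen needs to fold. Its values were 8.93 and 8.99 at 0 h, 8.99 at 3 h, 9.20 and 8.62 at 6 h, 9.83 at 24 h, 10.07 and 10.17 at 48 h, 11.12 at 72 h, and 11.95 and 11.77 at 96 h. They were higher at each later time from 24 h on, with both 96 h arrays above all others (3.41-fold late, log2 change 1.77, SE 0.229, adjusted p = 0.000235). The related subunit gene P4HA1 differed by 0.43 (adjusted p = 0.257), and P4HA2 itself by 0.05 in the LEF1 line (adjusted p = 0.945).

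VEGFA, the blood vessel growth factor, and NDRG1, a stress-induced protein, were high only at the end of the SNAI1 series. VEGFA read 7.47 and 7.69 at 0 h, 7.34 at 3 h, 7.71 and 7.98 at 6 h, 7.55 at 24 h, 7.17 and 7.42 at 48 h, 8.69 at 72 h, and 9.53 and 9.49 at 96 h. NDRG1 read 8.53 and 8.32 at 0 h, 7.80 at 3 h, 8.51 and 8.62 at 6 h, 8.89 at 24 h, 8.27 and 8.10 at 48 h, 9.50 at 72 h, and 10.48 and 10.20 at 96 h. In both genes the 48 h arrays lay below the 0 h arrays and the 72 and 96 h arrays above them. Their changes over the late times were 0.68, SE 0.212, adjusted p = 0.0363 for VEGFA and 0.80, SE 0.268, adjusted p = 0.049 for NDRG1. At 96 h alone they were 1.93, SE 0.255, adjusted p = 0.000175 and 1.92, SE 0.324, adjusted p = 0.000913, and DDIT4, an inhibitor of mTOR signalling, joined them (1.13, SE 0.364, adjusted p = 0.0326). So did BNIP3L, a mitophagy receptor gene (0.77, SE 0.264, adjusted p = 0.0416).

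The other hypoxia genes were not called late in the SNAI1 line. EGLN1 differed by 0.00, EGLN3 by -0.47, KDM3A by 0.49, the lipase inhibitor gene ANGPTL4 by 0.50 and ERO1A, an oxidase of protein folding, by -0.10. By time, KDM3A rose at 72 h and ADM fell at 48 h. Every late array lay above both 0 h arrays in 6 genes (HK1, PKM, ANGPTL4, BNIP3L, P4HA2 and KDM3A), which held for 17.2% of all genes, and below both in 5 (HK2, PFKP, PFKFB3, PFKFB4 and ENO2), which held for 14.8%.

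By time, the tests of the SNAI1 line called 0 of the 34 genes at 24 h, where 0.653% of all genes were called higher and 1.35% lower (2% in all). At 48 h they called 2 higher and 6 lower (6.94% and 7.47% of all genes, 14.4% in all), at 72 h 4 and 6 (11.9% and 11%, 22.9% in all), and at 96 h 7 and 8 (18.3% and 16.5%, 34.9% in all). At 24 h 5 of the 34 had an unadjusted p under 0.05, against 1710 of all 13471. The calls of ENO2, PFKP and P4HA2 over all late times held with any of the 8 SNAI1 arrays at 0 h or late left out. That of HK2 was lost without 0 h replicate 2 (-0.95, adjusted p = 0.0529), and those of PKM and PFKFB4 without 0 h replicate 1 (0.93 and -0.59, adjusted p = 0.0769 and 0.172) or replicate 2 (0.86 and -0.72, adjusted p = 0.0951 and 0.0956). GPI and NDRG1 were lost in 7 of the 8 fits (adjusted p 0.0625 to 0.236 and 0.062 to 0.257) and VEGFA in 6 (0.0581 to 0.251). Without 0 h replicate 1 there were 5 calls, and without replicate 2 there were 4.

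**Figure D3:**
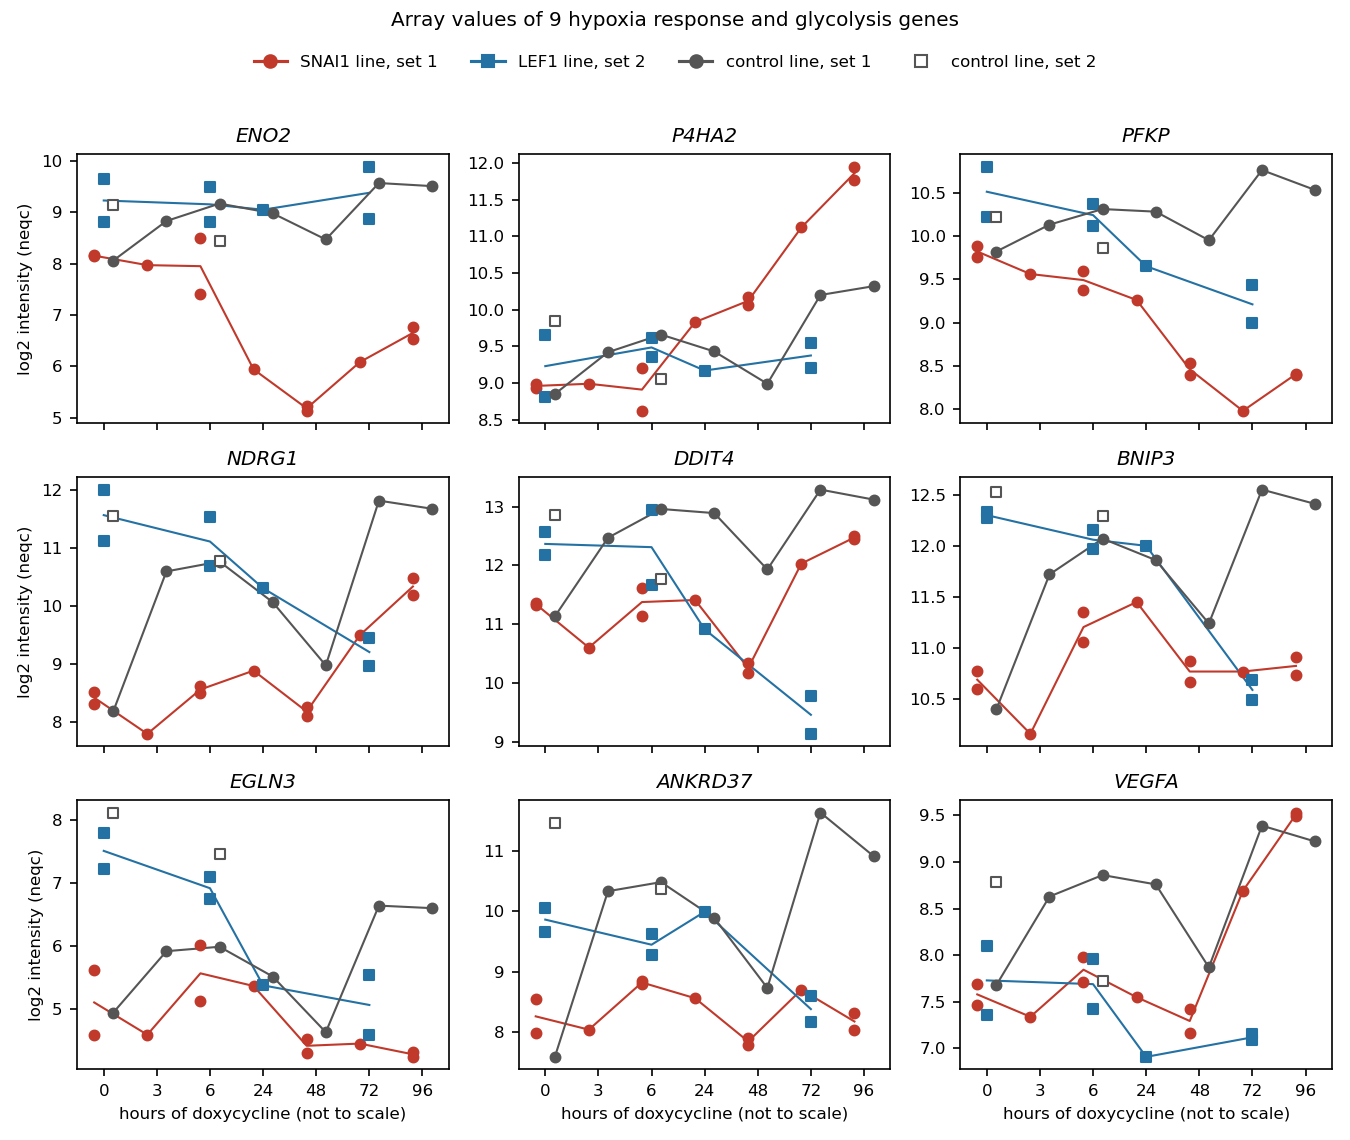
Log2 intensity of 9 genes on each array (points) by hours of doxycycline (not to scale), with lines through the mean at each time; circles are set 1, squares are set 2. ENO2 and PFKP are low in late SNAI1 arrays, P4HA2 ends at 11.95 and 11.77 at 96 h, and NDRG1, DDIT4 and EGLN3 have their lowest means at 72 h in the LEF1 line.

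In the LEF1 line these genes went down together late (24 and 72 h, against the line's own 0 h). Of the 34, 15 fell and 0 rose, where 3.67% of all genes were called lower and 4.77% higher (8.45% in all). The median of the 34 was -0.62, against 0 for all genes, and 33 of the 34 differences were negative. In 23 of the 34 every late array was below both 0 h arrays, which held for 16.6% of all genes. The genes called include glucose entry, the phosphofructokinase step, lower glycolysis, lactate dehydrogenase and the stress and hydroxylase genes.

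Of the 5 tested genes of glucose uptake and entry, SLC2A1 and HK2 fell. SLC2A1 read 10.45 and 10.62 at 0 h, 10.15 and 10.31 at 6 h, 9.74 at 24 h, and 9.09 and 9.28 at 72 h, lower at each later time (log2 change -1.07, SE 0.145, adjusted p = 0.00139). HK2 read 9.69 and 10.12 at 0 h, 9.51 and 9.91 at 6 h, 8.80 at 24 h, and 8.52 and 9.15 at 72 h, with all 3 late arrays below 0 h (-1.08, SE 0.232, adjusted p = 0.0174). At the phosphofructokinase step 3 of 4 genes fell. PFKP read 10.22 and 10.80 at 0 h, 10.11 and 10.37 at 6 h, 9.65 at 24 h, and 8.99 and 9.43 at 72 h (-1.08, SE 0.208, adjusted p = 0.00987). PFKFB3 read 10.25 and 10.30 at 0 h, 10.16 and 10.01 at 6 h, 9.90 at 24 h, and 9.37 and 9.04 at 72 h (-0.72, SE 0.149, adjusted p = 0.0139). PFKFB4 read 10.53 and 10.96 at 0 h, 10.28 and 10.52 at 6 h, 9.92 at 24 h, and 9.30 and 9.85 at 72 h (-1.0, SE 0.208, adjusted p = 0.0148). In each of these 3 the late arrays lay below both 0 h arrays, and PFKL, with a change of -0.59, was not called.

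From aldolase to pyruvate kinase, 3 of 9 genes fell. ALDOC, the brain-type aldolase, read 11.87 and 12.26 at 0 h, 11.56 and 12.16 at 6 h, 11.29 at 24 h, and 10.43 and 10.73 at 72 h (log2 change -1.13, SE 0.217, adjusted p = 0.00976). PGK1, a kinase that yields ATP, read 12.66 and 12.68 at 0 h, 12.69 and 12.46 at 6 h, 12.31 at 24 h, and 11.92 and 11.68 at 72 h (-0.61, SE 0.158, adjusted p = 0.0389). ENO1, the common enolase, read 14.14 and 14.07 at 0 h, 13.99 and 14.07 at 6 h, 13.59 at 24 h, and 13.40 and 13.53 at 72 h (-0.58, SE 0.143, adjusted p = 0.0326). All 3 were lowest at 72 h, and none of their late arrays reached a 0 h value. LDHA read 14.13 and 14.05 at 0 h, 14.04 and 13.94 at 6 h, 13.82 at 24 h, and 13.07 and 13.11 at 72 h. It was lowest at 72 h, and its change over both late times was -0.64, SE 0.16, adjusted p = 0.0341. ENO2, the gene with the largest fall in the SNAI1 line, read 8.82 and 9.64 at 0 h, 8.81 and 9.50 at 6 h, 9.05 at 24 h, and 8.87 and 9.89 at 72 h here, and its groups overlapped (-0.01, SE 0.394, adjusted p = 0.99). PKM differed by -0.46 (adjusted p = 0.299).

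The largest changes in the LEF1 line were in the hypoxia genes outside glycolysis. DDIT4 read 12.17 and 12.56 at 0 h, 11.67 and 12.95 at 6 h, 10.91 at 24 h, and 9.13 and 9.78 at 72 h, a 4.53-fold lower late mean (log2 change -2.18, SE 0.34, adjusted p = 0.00329). NDRG1 read 11.13 and 12.01 at 0 h, 10.69 and 11.54 at 6 h, 10.31 at 24 h, and 8.97 and 9.45 at 72 h (-1.81, SE 0.303, adjusted p = 0.0048). BNIP3, a mitophagy receptor gene, read 12.33 and 12.27 at 0 h, 12.15 and 11.97 at 6 h, 12 at 24 h, and 10.69 and 10.49 at 72 h (-1.0, SE 0.162, adjusted p = 0.00398). In all 3 genes the 24 h array lay below both 0 h arrays and the 72 h arrays lower still, and at 24 h alone none was called.

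EGLN3, the oxygen-dependent hydroxylase that HIF itself induces, read 7.22 and 7.79 at 0 h, 6.74 and 7.09 at 6 h, 5.38 at 24 h, and 4.59 and 5.55 at 72 h. Only 1 of its 3 late arrays (72 h replicate 2) was detected, and the fitted change was -2.28, SE 0.382, adjusted p = 0.0048. At 24 h, where it was not detected, it was at least 3.74-fold lower than at 0 h. STC1, a secreted glycoprotein hormone, read 6.86 and 7.70 at 0 h, 7.22 and 7.06 at 6 h, 6.52 at 24 h, and 4.38 and 4.61 at 72 h (-1.77, SE 0.278, adjusted p = 0.00333). Its probe was not detected at 72 h, where it was at least 3.37-fold lower than at 0 h. P4HA1 read 10.63 and 11.31 at 0 h, 10.52 and 11.16 at 6 h, 10.38 at 24 h, and 9.25 and 9.74 at 72 h (-1.03, SE 0.285, adjusted p = 0.049), and it too was lowest at 72 h. EGLN1, the main oxygen sensor of HIF, differed by -0.39 and KDM3A, a HIF-induced histone demethylase, by -0.34, with neither called. ANGPTL4 (-0.01), ERO1A (-0.56) and BNIP3L (-0.21) were not called either.

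VEGFA (-0.71), the vessel-dilating peptide gene ADM (-0.73) and ANKRD37, a small ankyrin repeat gene and well-known HIF target (-0.67), were not called over both late times (adjusted p = 0.096, 0.0795 and 0.095). At 72 h alone 17 of the 34 genes were lower and 0 higher (5.93% and 7.67% of all genes), with GPI and ANKRD37 (-1.48, SE 0.24, adjusted p = 0.00254) added to the 15. At 24 h alone 0 were called (1.24% of all genes), while 11 had an unadjusted p under 0.05, against 1849 of all 13471. The calls of SLC2A1, STC1, BNIP3, NDRG1, DDIT4 and EGLN3 held with any of the 5 arrays left out, and STC1 held in all 15 other settings as well. Without 0 h replicate 2 there were 6 calls, which are these same genes. In a fit of the set 2 arrays alone 2 of the 15 passed, and with the array set ignored 6. The control line has no late array in set 2, so the late LEF1 change could not be set against a control change of the same set.

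**Figure D4:**
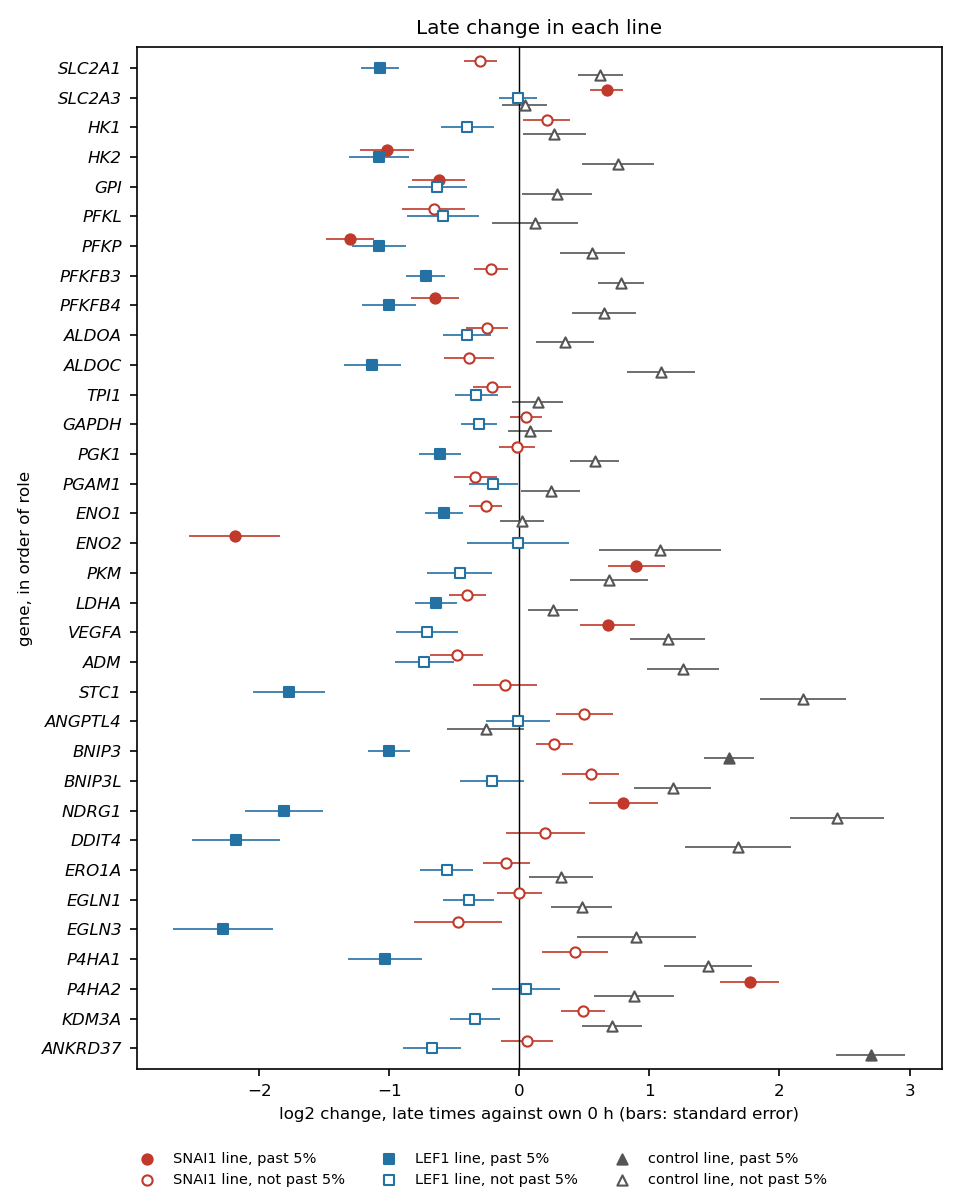
Late log2 change against the same line's 0 h for each tested gene (horizontal axis; bars are standard errors, filled symbols passed 5%), with the SNAI1 line in red circles, the LEF1 line in blue squares and the control line in grey triangles. The LEF1 points lie left of 0 in 33 of 34 genes, the control points right of 0 in 33 of 34, and the SNAI1 points lie on both sides, with ENO2 at -2.19 and P4HA2 at 1.77.

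In the control line of set 1 nearly all of these genes read higher than at 0 h. Early (3 and 6 h) 34 of 34 did so, and late 33 of 34, with a median of 0.67 at both, where the medians of all genes were -0.01 and 0. With 1 array per time, few passed: 1 gene early (0.00742% of all genes) and 2 late (0.0148% of all), and these were the sole genes called of 13471. At an unadjusted p under 0.05 there were 15 of the 34 early and 20 late, against 656 and 1055 of all 13471. Late, every array was above the 0 h array in 24 of the 34 genes, which held for 19.7% of all.

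ANKRD37 was called both early and late. In the control line it read 7.59 at 0 h, 10.33 at 3 h, 10.48 at 6 h, 9.89 at 24 h, 8.73 at 48 h, 11.63 at 72 h, and 10.91 at 96 h. It was above the 0 h array at every time, least at 48 h (log2 change 2.81, SE 0.294, adjusted p = 0.0169 early and 2.70, SE 0.268, adjusted p = 0.0104 late). BNIP3, called late, read 10.40 at 0 h, 11.72 at 3 h, 12.07 at 6 h, 11.86 at 24 h, 11.24 at 48 h, 12.55 at 72 h, and 12.41 at 96 h (1.61, SE 0.194, adjusted p = 0.033). It too was nearest to 0 h at 48 h. NDRG1 (2.44) and STC1 (2.18) had late changes of that order and did not pass over 4 times (adjusted p = 0.142 for both). At 72 h both passed with BNIP3 and ANKRD37 (4 of the 8 genes called in all, 0.0594%), and at 96 h 8 of the 34 did (1.96% of all genes were called higher). These tests by time set 1 array against 1 array and take their error from the spread in other groups. With the array set as a block the calls were lost (adjusted p 0.577 to 0.59 at 72 h and 0.079 to 0.429 at 96 h).

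The size of the late change depends on the baseline. With 3 and 6 h in place of 0 h the late median of the 34 genes was 0.02, with 0 called (0 of all genes), and ANKRD37 changed by -0.12. That baseline leaves out any change already there by 3 h. The early call of ANKRD37 was lost without the 3 h array (2.89, adjusted p = 0.0526) or the 6 h array (2.74, adjusted p = 0.088). The late calls of ANKRD37 and BNIP3 were lost without the 72 h array (2.25 and 1.43, adjusted p = 0.0821 and 0.132), and that of BNIP3 without the 96 h array (1.48, adjusted p = 0.0995). Without the 48 h array 4 genes passed late. With both sets joined the late medians were 0.48 (set as a block) and 0.30 (set ignored), and 0 genes of the 34 were called early or late in either fit (adjusted p at least 0.998 for ANKRD37 and BNIP3).

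Set against the control line, the late change of the SNAI1 line was lower in 11 of the 34 genes and higher in 0, where 4.02% of all genes were called lower and 3.59% higher (7.62% in all). The median difference of the changes was -0.72, against 0.03 for all genes. In 7 of the 11 the gene is glycolytic: SLC2A1, HK2, PFKP, PFKFB3, PFKFB4, ALDOC and ENO2. The other 4 are ADM, STC1, BNIP3 and ANKRD37. The comparison asks whether the SNAI1 line changed otherwise than the control line over the same hours of doxycycline.

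ENO2 differed most (log2 change -3.27, SE 0.586, adjusted p = 0.00665). In the control line it read 8.06 at 0 h, 8.83 at 3 h, 9.17 at 6 h, 8.98 at 24 h, 8.47 at 48 h, 9.57 at 72 h, and 9.51 at 96 h. From 24 h on every SNAI1 array was below every control array. PFKP had the smallest p among the glycolytic genes (-1.86, SE 0.31, adjusted p = 0.00464), with control values of 9.82 at 0 h, 10.13 at 3 h, 10.31 at 6 h, 10.28 at 24 h, 9.95 at 48 h, 10.76 at 72 h, and 10.53 at 96 h. HK2 differed by -1.78, SE 0.346, adjusted p = 0.0102, with control values of 8.97 at 0 h, 9.89 at 3 h, 9.99 at 6 h, 9.58 at 24 h, 9.52 at 48 h, 10.05 at 72 h, and 9.77 at 96 h. In these genes the SNAI1 line fell and the control line read higher than at 0 h.

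In the other 8 genes the SNAI1 line's own late change was -0.65 to 0.27, and that of PFKFB4 alone was called. ANKRD37 had a difference of -2.64, SE 0.334, adjusted p = 0.000869, and read 7.98 and 8.54 at 0 h, 8.04 at 3 h, 8.79 and 8.85 at 6 h, 8.56 at 24 h, 7.79 and 7.90 at 48 h, 8.70 at 72 h, and 8.31 and 8.04 at 96 h in the SNAI1 line. STC1 differed by -2.29, SE 0.413, adjusted p = 0.00682, with SNAI1 values of 5.55 and 5.46 at 0 h, 5.22 at 3 h, 5.86 and 5.02 at 6 h, 5.09 at 24 h, 6.36 and 6.24 at 48 h, 5.14 at 72 h, and 4.98 and 5.10 at 96 h and control values of 5.45 at 0 h, 7.49 at 3 h, 7.77 at 6 h, 7.20 at 24 h, 6.51 at 48 h, 8.78 at 72 h, and 8.03 at 96 h. ADM differed by -1.73, SE 0.342, adjusted p = 0.0111, with SNAI1 values of 9.05 and 8.53 at 0 h, 8.46 at 3 h, 8.95 and 9.39 at 6 h, 8.60 at 24 h, 7.90 and 7.90 at 48 h, 8.23 at 72 h, and 8.62 and 8.40 at 96 h and control values of 8.84 at 0 h, 10.18 at 3 h, 10.69 at 6 h, 10.42 at 24 h, 9.70 at 48 h, 10.70 at 72 h, and 9.56 at 96 h. All 3 stayed below every control value of 3 h and later on each late SNAI1 array. The STC1 probe was detected on 9 of the 11 SNAI1 arrays, but not on 6 h replicate 2 or 96 h replicate 1. BNIP3 differed by -1.35, SE 0.241, adjusted p = 0.00665, with SNAI1 values of 10.78 and 10.60 at 0 h, 10.16 at 3 h, 11.06 and 11.35 at 6 h, 11.45 at 24 h, 10.87 and 10.67 at 48 h, 10.77 at 72 h, and 10.91 and 10.74 at 96 h.

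ALDOC differed by -1.48, SE 0.324, adjusted p = 0.0188, with SNAI1 values of 11.13 and 11 at 0 h, 10.99 at 3 h, 11.08 and 11.19 at 6 h, 11.16 at 24 h, 10.73 and 10.35 at 48 h, 10.53 at 72 h, and 10.53 and 10.42 at 96 h and control values of 11.13 at 0 h, 11.91 at 3 h, 12.06 at 6 h, 11.91 at 24 h, 11.37 at 48 h, 12.71 at 72 h, and 12.91 at 96 h. PFKFB4 differed by -1.30, SE 0.309, adjusted p = 0.027, with control values of 9.62 at 0 h, 9.64 at 3 h, 9.97 at 6 h, 9.79 at 24 h, 9.50 at 48 h, 11.12 at 72 h, and 10.67 at 96 h. Both were highest in the control line at 72 and 96 h. SLC2A1 differed by -0.92, SE 0.215, adjusted p = 0.0253, with SNAI1 values of 9.29 and 9.34 at 0 h, 9.54 at 3 h, 9.45 and 9.49 at 6 h, 9.09 at 24 h, 8.54 and 8.69 at 48 h, 8.96 at 72 h, and 9.44 and 9.32 at 96 h and control values of 9.36 at 0 h, 10.27 at 3 h, 10.37 at 6 h, 9.83 at 24 h, 9.41 at 48 h, 10.55 at 72 h, and 10.15 at 96 h. PFKFB3 differed by -1.0, SE 0.222, adjusted p = 0.0199, with SNAI1 values of 9.69 and 9.66 at 0 h, 9.77 at 3 h, 9.81 and 9.68 at 6 h, 9.44 at 24 h, 9.37 and 9.47 at 48 h, 9.40 at 72 h, and 9.52 and 9.53 at 96 h and control values of 9.50 at 0 h, 10.34 at 3 h, 10.34 at 6 h, 9.90 at 24 h, 9.74 at 48 h, 10.79 at 72 h, and 10.70 at 96 h. The SNAI1 values of PFKFB3 lie between 9.37 and 9.81, while its control values are highest at 3, 6, 72 and 96 h.

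The following 2 comparisons without 0 h arrays were added after the control array at 0 h was seen to be low. Compared by level at the same late times, 25 of the 34 genes were lower in the SNAI1 line than in the control line and 3 higher, where 16.2% of all genes were lower and 18.4% higher, 34.7% in all (median -0.68, against 0.04 for all). All 11 were among the 25, with ENO2 at -3.17, SE 0.279, adjusted p = 7.56e-06, PFKP at -1.85, SE 0.147, adjusted p = 3.56e-06 and ANKRD37 at -1.97, SE 0.159, adjusted p = 3.98e-06. The 3 higher were PKM (0.57, SE 0.175, adjusted p = 0.0266), P4HA2 (1.0, SE 0.183, adjusted p = 0.00148) and SLC2A3, which was detected on 0 control arrays and was admitted by its late SNAI1 arrays. Compared by the change from 3 and 6 h, 2 were lower, ENO2 (-2.13, SE 0.482, adjusted p = 0.0178) and PFKP (-1.16, SE 0.255, adjusted p = 0.0156), and 2 higher, P4HA2 (1.60, SE 0.317, adjusted p = 0.00939) and, with the same limit, SLC2A3. There 4.89% of all genes were lower and 4.68% higher, the median was -0.09, and ANKRD37, BNIP3 and STC1 were at 0.01, 0.15 and 0.06.

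ENO2 and PFKP were thus lower in the SNAI1 line whichever baseline was used, in all 15 other settings and all 12 fits with 1 array left out. Of the others, HK2, STC1, BNIP3 and ANKRD37 held in those 12 fits too. ADM was lost without SNAI1 0 h replicate 1 (-1.48, adjusted p = 0.0507), and ALDOC, SLC2A1, PFKFB3 and PFKFB4 without either SNAI1 0 h array (adjusted p 0.0553 to 0.0961). The last 3 were lost without the control 72 h array as well (-0.74, -0.83 and -1.02, adjusted p = 0.0767, 0.0537 and 0.0856). Without SNAI1 0 h replicate 1, 6 genes passed, and without replicate 2, 7. With the array set as a block 5 of the 11 were called (SLC2A1, HK2, PFKP, PFKFB4 and ENO2), and PFKFB3, ALDOC, ADM, STC1, BNIP3 and ANKRD37 were lost (adjusted p 0.0717 to 0.326). With the set ignored SLC2A1 was lost as well, and 4 were called.

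By time, the level of the 34 genes in the SNAI1 line minus that in the control line of set 1 had a median of 0.03 at 0 h, -0.58 at 3 h, -0.58 at 6 h, -0.22 at 24 h, -0.29 at 48 h, -1.27 at 72 h and -0.90 at 96 h. At 6 h 34 of 34 were lower in the SNAI1 line. The medians of all genes were between 0 and 0.07. The gap was therefore there by 3 h, narrow at 24 and 48 h and widest at 72 h.

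The SNAI1 and LEF1 lines were compared by their own changes at 24 and 72 h, the late times that both have. The difference was positive (SNAI1 above LEF1) in 31 of the 34 genes, with a median of 0.55, against 0.01 for all genes. It was called in 3, all higher, where 1.57% of all genes were called higher and 2.32% lower (3.89% in all): NDRG1 (2.58, SE 0.443, adjusted p = 0.00904), DDIT4 (2.55, SE 0.498, adjusted p = 0.0165) and BNIP3 (1.42, SE 0.237, adjusted p = 0.00774). These are the genes of stress and mitophagy that fell in the LEF1 line. ENO2 lay on the other side and was not called without a replicate block (-2.13, SE 0.577, adjusted p = 0.0732).

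For HK2 and PFKP, which fell late in both lines, the differences were 0.13 (SE 0.34) and -0.13 (SE 0.305), and neither passed. The LEF1 replicate numbers pair its arrays, and with the replicate number as a block in that line 9 genes were higher (SLC2A1, PKM, VEGFA, BNIP3, NDRG1, DDIT4, EGLN3, P4HA1 and P4HA2) and 1 lower, ENO2 (-2.34, adjusted p = 0.00833). The share of all genes called is not given here for that fit or for those with arrays left out. The calls of NDRG1 and BNIP3 held with any of the 9 arrays left out. That of DDIT4 was lost without SNAI1 0 h replicate 1 or 2, SNAI1 72 h or LEF1 0 h replicate 2 (2.24 to 2.57, adjusted p 0.0618 to 0.0794). Leaving out SNAI1 24 h, LEF1 0 h replicate 1 or LEF1 24 h gave 6, 7 and 8 calls. With the array set as a block, or ignored, 0 passed. The lines lie in different sets, so the level of a gene in one line and the other cannot be told apart from the set.

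At 3 and 6 h the SNAI1 line had 0 calls among the 34 genes and among all 13471, with 1 of 34 and 543 of all at an unadjusted p under 0.05 (PFKFB4 at -0.63, SE 0.208). The early changes of the 34 ran from -0.63 to 0.27, with a median of -0.01. At 6 h the LEF1 line likewise had 0 calls (1 of 34 and 469 of all at an unadjusted p under 0.05, median -0.13). SNAI1 minus control early changes had a median of -0.73 with 0 calls in all (16 of 34 and 531 of all genes at an unadjusted p under 0.05), and LEF1 minus control changes at 6 h in set 2 a median of 0.16 with 0 calls (2 of 34 and 1113 of all). Compared by level at 3 and 6 h, with no 0 h array, ADM, STC1, BNIP3, NDRG1 and ANKRD37 were lower in the SNAI1 line than in the control line (-1.21 to -2.50, adjusted p 0.0128 to 0.0282). These are 5 of the 11 genes called lower of all 13471 (0.0817%).

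Other genes of these pathways were counted from 5 lists. Of 26 tested further glycolysis and lactate genes, 3 rose and 3 fell late in the SNAI1 line (median 0), with the pyruvate dehydrogenase kinase PDK3 at 1.19 (SE 0.18, adjusted p = 0.000661) and the fructose transporter SLC2A5 at -1.29 (SE 0.199, adjusted p = 0.000787). In the LEF1 line 1 rose and 2 fell (median -0.16): PDK4, a kinase of the same family, rose by 2.35 (SE 0.193, adjusted p = 5.52e-05), and the phosphoglucomutase PGM1 fell by 0.96 (SE 0.171, adjusted p = 0.00678). Of 38 tested HIF subunits, regulators and other targets, 9 rose and 4 fell late in the SNAI1 line (median 0.21), against 1 and 7 in the LEF1 line (median -0.33). In the SNAI1 line RIMKLA, an amino acid ligase gene, fell by 1.84 (SE 0.175, adjusted p = 2.8e-05) and RORA, a nuclear receptor gene, rose by 1.57 (SE 0.177, adjusted p = 9.92e-05). The change of EPAS1, which encodes HIF-2 alpha, was higher in the SNAI1 line than in the LEF1 line (1.58, SE 0.344, adjusted p = 0.028), as was that of the repressor gene BHLHE40 (2.21, SE 0.317, adjusted p = 0.00337). In the LEF1 line BHLHE40 fell by 1.46 (SE 0.217, adjusted p = 0.00251) and the lipid droplet gene HILPDA by 0.91 (SE 0.165, adjusted p = 0.007).

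Of 33 tested genes of the citrate cycle and respiratory chain, 0 rose and 11 fell late in the SNAI1 line (median -0.23), among them the succinate dehydrogenase subunit SDHA (-0.92, SE 0.147, adjusted p = 0.00099) and cytochrome c1, CYC1 (-0.77, SE 0.117, adjusted p = 0.00066). CYC1 was the 1 that fell in the LEF1 line (-0.59, SE 0.132, adjusted p = 0.0212). Of 9 tested pentose phosphate and glucose-sensing genes, 6 fell late in the SNAI1 line, with MLXIPL, the glucose-sensing factor ChREBP, at -2.10 (SE 0.253, adjusted p = 0.000148). In the LEF1 line 1 fell, the glucose-responsive gene ARRDC4 (-1.10, SE 0.17, adjusted p = 0.00312). Of 20 targets of ATF4, a factor of the amino acid and stress response that also drives DDIT4, 7 rose and 0 fell late in the SNAI1 line (median 0.56) and 0 rose and 2 fell in the LEF1 line (median -0.52). The late background was 13% higher and 12.3% lower in the SNAI1 line and 4.77% and 3.67% in the LEF1 line. By SNAI1 minus control late change fewer were called. There 1 ATF4 target was higher and 0 lower, and 0 citrate cycle and respiratory chain genes were higher and 1 lower. The HIF list had 1 higher and 4 lower (median -0.01), the pentose phosphate list 0 and 2, and the further glycolysis list 0 and 1. Of all genes 3.59% were higher and 4.02% lower.

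Another tested probe was present for 16 of the 34 genes, and none passed in the direction opposite to a call of the main probe.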

How the data were processed

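Illumina bead array intensities of 27 arrays were used, deposited by the authors as log2 values without normalisation, as p-values of detection for every probe and array, and as a matrix of log2 values that the authors had quantile-normalised, as read from the values. The software behind these values is not given in the sources used here. Of 47323 probes, 32 with missing values were dropped, 30092 had 1 gene in the platform annotation, 8 several and 17191 none. Values were unlogged and passed through neqc of limma 3.58.1 in R 4.3.3 (normexp correction, an offset of 16, quantile normalisation), with background estimated through the detection p-values. The limma model had 1 mean for each of the 20 combinations of line, time and array set (7 residual degrees of freedom, 3.86 added by eBayes), with p-values adjusted over 13471 genes. Times were weighted equally. The number of arrays limits the precision. Alternatives covered background correction, normalisation, filter, probe choice, array set, baseline, replicate block and single arrays left out. Tests were tried on simulated data.

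The 35 genes and the comparison lists were chosen with earlier results of these data known. Array by array values are given for members past 5% in any of the 10 tests or among the 8 with the largest change from 0 h; from each list, at most the 2 genes with the lowest p per test are named. One LEF1 array is titled 6 h while its time field reads 0 h, and it was taken as 6 h. The LEF1 replicate numbers pair the arrays by the data (same-numbered arrays deviated together, correlations 0.474 to 0.525), whereas SNAI1 numbers did not (-0.0146 to 0.129).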

Additional observations from a re-analysis of the deposited data

Results flagged for a closer look

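These results are listed because the change differed between lines by a test of the difference itself. Late, SNAI1 minus control differences in log2 change were -3.27 for ENO2, -2.64 for ANKRD37, -2.29 for STC1, -1.86 for PFKP, -1.78 for HK2, -1.73 for ADM, -1.48 for ALDOC, -1.35 for BNIP3, -1.30 for PFKFB4, -1.0 for PFKFB3 and -0.92 for SLC2A1. All 11 use the single control array at 0 h in set 1, and with 3 and 6 h in place of 0 h those of ENO2 and PFKP passed. At 24 and 72 h, SNAI1 minus LEF1 differences were 2.58 for NDRG1, 2.55 for DDIT4 and 1.42 for BNIP3, between lines that lie in different array sets. The part of the array set in these differences was not tested beyond the fits with the set as a block or ignored.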

How the results depend on the processing

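Counts of genes called among the 34 moved as follows, given without the share of all genes called in each fit. With the deposited matrix, or with no background correction, they were 2 for the control line early, 4 late, 1 for SNAI1 minus control early and 9 for SNAI1 minus LEF1; with an offset of 50 they were 2, 4 and 6 for the control line early, late and SNAI1 minus LEF1. With the array set as a block they were 0, 0, 5 and 0 for the control line early, late, SNAI1 minus control late and SNAI1 minus LEF1, and with the set ignored 0, 0, 4 and 0, and 6 for the LEF1 line late. In same-set arrays alone the LEF1 line late had 2. With trend and robust eBayes the control line early had 2, SNAI1 minus control early 1 and SNAI1 minus LEF1 8. With the mean of all probes SNAI1 minus LEF1 had 5, and with the LEF1 array titled 6 h taken as 0 h also 5. With the replicate block the SNAI1 line late had 16, SNAI1 minus control early 1 and SNAI1 minus LEF1 9; in the LEF1 line only, the block gave SNAI1 minus LEF1 10 and moved no other count by over 1.5 times. At 72 and 96 h alone the SNAI1 line had 16, the control line 12 and SNAI1 minus control 19. Added after seeing the data, levels without 0 h gave SNAI1 minus control 5 early and 28 late, and 3 and 6 h in place of 0 h gave the control line 0 late and SNAI1 minus control 4; that baseline also turned the sign of ANKRD37 in the control line (-0.12) and of STC1, BNIP3 and ANKRD37 in SNAI1 minus control (0.06, 0.15 and 0.01). With 1 array left out, the counts ran from 4 to 14 for the SNAI1 line late, 6 to 17 for the LEF1 line late, 6 to 14 for SNAI1 minus control late, 2 to 8 for SNAI1 minus LEF1, 0 to 4 for the control line late and 0 to 0 for the control line early. The tests with 0 calls (SNAI1 early, LEF1 at 6 h, LEF1 minus control at 6 h and SNAI1 minus control early) stayed at 0 to 0 there. Leaving out the set 1 control array at 0 h leaves no control baseline, and SNAI1 minus LEF1 has no fit within 1 set. The causes were not tested.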
